A study of Mus musculus with 8 samples.

Results

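The cathepsins Ctsl, Ctsb, Ctss, Ctsz, Ctsh, Ctsd and Ctse and the inhibitor Ctla2a were described here in single cells of 2 mouse pancreatic tumors. The 8 genes were taken by symbol from a list that had been selected on levels measured in these same cells, and each had 1 row among the 27775 gene rows of both count tables. Their levels by cell type and by carcinoma state are therefore a description, and no test was made of them. The mice were of the KPC strain, in which engineered alleles, a mutant Trp53 allele behind a stop cassette among them, are switched on by Pdx-1-Cre. That Cre is active in the pancreatic lineage, so the alleles act in epithelial cells and not by design in macrophages, fibroblasts or endothelium. The mice were untreated, their age was not given in the sources used here, and the groups were 1 tumor of medium size and 1 large tumor. Each tumor was dissociated with a Miltenyi kit, and its cells were captured on the Chromium system of 10x Genomics with 3′ chemistry, which counts each RNA molecule once by its unique molecular identifier (UMI). The 4 technical replicates of a tumor are pooled in its table and cannot be told apart there, so a difference between the tumors has no replicate behind it.

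Cathepsins are proteases made as inactive proenzymes, sorted to endosomes and lysosomes by mannose 6-phosphate receptors, and activated there by removal of the propeptide. Ctsl, Ctsb, Ctss, Ctsz and Ctsh encode cysteine proteases, whereas Ctsd and Ctse encode aspartic proteases. Cysteine cathepsins are held in check by cystatins and stefins, and in mice also by Ctla2a, whose product resembles the propeptide of cathepsin L and blocks that enzyme. Macrophages are rich in cathepsins, which digest engulfed matter and process antigens, and carcinomas can release them into the surrounding matrix.

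The medium tumor gave 2812 cell barcodes with a median of 5456.5 UMIs, and the large tumor gave 1533 with a median of 1037. The 8 genes held 92001 UMIs, or 0.453% of the total, in the medium tumor and 6830 UMIs, or 0.305%, in the large tumor. Cells were clustered in each tumor on its own, which gave 14 and 10 clusters, and a cluster was named from marker genes among which no cathepsin stood. The epithelial-like cells, taken as carcinoma cells, numbered 2331 in 8 clusters of the medium tumor and 1219 in 7 clusters of the large tumor. The monocyte/macrophage-like cells numbered 238 and 253. Cluster 12 of the medium tumor carried 10 of 11 epithelial markers together with 9 of 11 macrophage markers and was left unnamed. Medium cluster 7 and large cluster 1 rested on 3 of the 11 epithelial markers. Ctla2a and Ctss in the medium tumor, and Ctla2a, Ctsl, Ctsd, Ctss and Ctse in the large tumor, were among the variable genes that built the clusters, and 5 barcodes occurred in both libraries.

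Levels are given as CPM, the summed UMIs of a gene in a cell group per 1000000 UMIs of that group. A 3′ library counts 1 end per molecule, so the CPM of different genes can be compared without division by length. Intervals are exact 95% Poisson intervals and cover counting error only, and a group at 0 is compatible with up to 3 UMIs.

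Ctla2a was high in endothelium of both tumors and in carcinoma and fibroblast-like stromal cells of the medium tumor. It lies on chromosome 13 (GRCm38, chr13:60934155-60936625, minus strand) and encodes the propeptide-like inhibitor. In the medium tumor its level was 3150 CPM (2927 to 3385) in endothelial-like cells, 1491 CPM (1473 to 1509) in epithelial-like cells, 1455 CPM (1328 to 1591) in fibroblast-like stromal cells and 677 CPM (591 to 772) in the unnamed cluster. It was 462 CPM (397 to 535) in mesothelial-like cells and 191 CPM (164 to 222) in monocyte/macrophage-like cells. Only the epithelial-like and stromal levels overlapped among neighbours in this order. The endothelial-like level of the large tumor was higher still, at 4819 CPM (3803 to 6023), with the gene found in all 11 cells of that cluster. The stromal level was 308 CPM (191 to 471), the monocyte/macrophage-like level 76.5 CPM (42.8 to 126) and the epithelial-like level 11.7 CPM (7.44 to 17.6). The intervals of these 4 classes did not overlap. The order of the classes therefore differed between the tumors, with carcinoma cells second in one and last in the other.

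**Figure D1:**
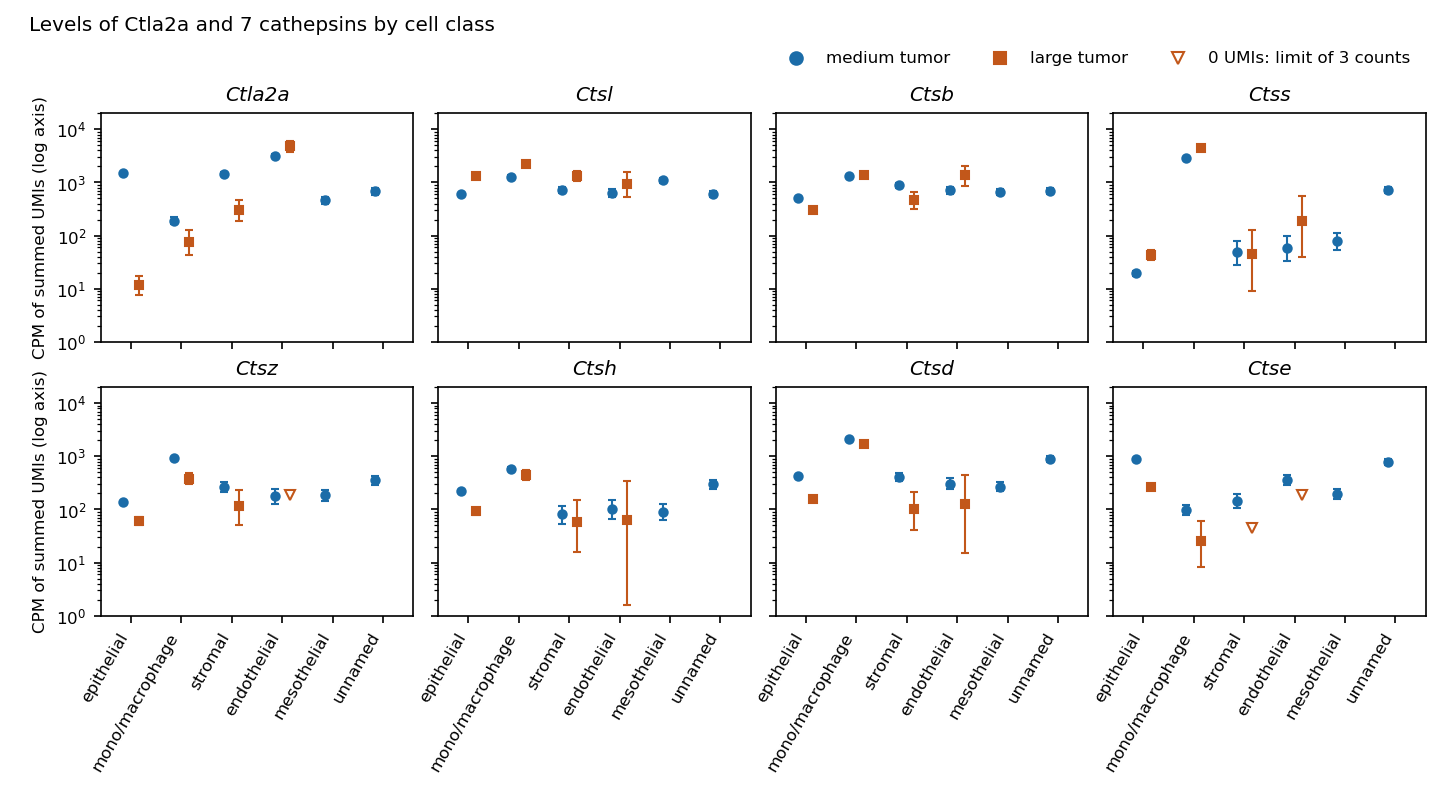
Level of each of the 8 genes in CPM of summed UMIs (log axis) by cell class, in the medium tumor (circles) and the large tumor (squares), with exact 95% Poisson intervals; open triangles mark classes with 0 UMIs, drawn at the limit of 3 counts. Ctla2a lay at 1491 CPM in the medium and 11.7 CPM in the large epithelial-like cells, while Ctss peaked in monocyte/macrophage-like cells of both tumors.

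Within the carcinoma cells of the medium tumor, Ctla2a was carried by 3 of the 8 clusters. Its level was 6372 CPM in cluster 6 (led by Krt17, Cldn4 and Slco2a1), 6122 CPM in cluster 4 (Tff3, Ly6d and Reg1) and 2340 CPM in cluster 8 (Dmbt1, Lcn2 and Sftpd). Ctla2a was itself among the 10 leading genes of cluster 6 and among the variable genes that built the clusters. Cluster 6 held 39.3% of all Ctla2a UMIs of the tumor, cluster 4 held 34.4% and cluster 8 held 10.8%. In cluster 8 a single cell held 1205 of the 3106 UMIs, and without it the level was 1449 CPM (1384 to 1515). The other epithelial-like clusters had 444 CPM in cluster 7 (Inhba, Bmp2 and Piezo2), 215 CPM in cluster 3 (Ube2c, Birc5 and Cenpf), 189 CPM in cluster 2 (Mcpt8, Cldn6 and Fam213a), 124 CPM in cluster 1 (Gkn1, Gkn3 and Gkn2) and 93.8 CPM in cluster 5 (Yap1, Birc2 and Dcun1d5). The level in cluster 6 was 67.9-fold (60.1 to 77.0) that in cluster 5. The clusters high in Ctla2a were also high in Epcam, an epithelial adhesion molecule, and low in Vim, an intermediate filament of mesenchymal cells. Epcam was at 2949, 2407 and 1984 CPM in clusters 6, 4 and 8, against 200 CPM in cluster 7 and 213 CPM in cluster 5. Vim was at 247, 61.8 and 42.9 CPM in the same 3 clusters, against 1570 and 1572 CPM in clusters 7 and 5. High Epcam did not always go with high Ctla2a, since cluster 1 had 1363 CPM of Epcam and 124 CPM of Ctla2a. The 11 endothelial markers summed to 60.8 CPM in cluster 6 and 37.7 CPM in cluster 4, against 5595 CPM in the endothelial-like cluster 14.

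The inhibitor was spread unevenly among the cells of a cluster. After each cell was thinned to 2500 UMIs, 30.1% of the cells of cluster 6 held 20 or more Ctla2a UMIs and 16.1% held none. In cluster 4 the shares were 19.9% and 33.6%, and in cluster 8 they were 4.85% and 56.4%. No cell of clusters 1, 2, 3 and 5 reached 20, and in cluster 5 the gene was at 0 in 86.2% of cells. Single cells reached 1450 UMIs of Ctla2a in cluster 4, 1205 in cluster 8 and 376 in cluster 6 before thinning. Cluster 4 thus had more cells without the gene than cluster 6, and also the cell with the highest count.

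**Figure D2:**
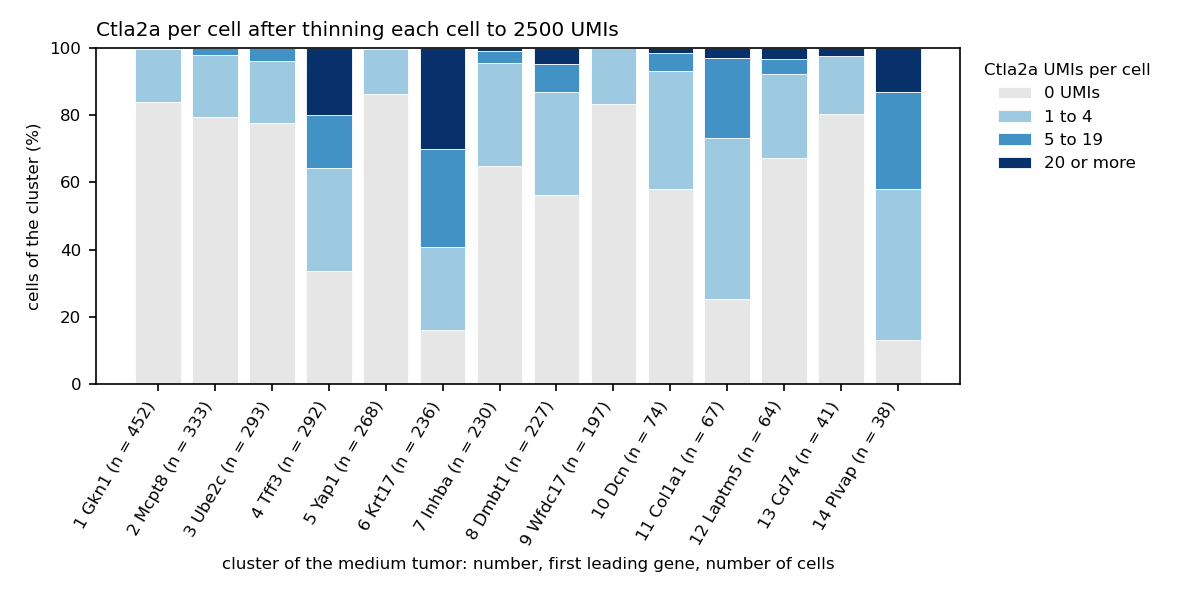
Share of cells (%) in each cluster of the medium tumor with 0, 1 to 4, 5 to 19, or 20 or more Ctla2a UMIs after thinning every cell to 2500 UMIs; n is the number of cells. Cells with 20 or more UMIs made up 30.1% of cluster 6, 19.9% of cluster 4 and 13.2% of the endothelial-like cluster 14.

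No carcinoma cluster of the large tumor was high in Ctla2a. The 23 UMIs of its epithelial-like cells came from 8 of 1219 cells, with 12 UMIs (55.0 CPM) in cluster 3, 5 in cluster 5, 5 in cluster 7, 1 in cluster 1 and 0 in clusters 4, 6 and 9. A count of 0 allows up to 15.3 CPM in cluster 4, 16.8 CPM in cluster 6 and 162 CPM in cluster 9. Clusters 3 and 7, with Epcam at 1298 and 1908 CPM, were thus far below the Epcam-high clusters 6, 4 and 8 of the medium tumor in Ctla2a, the upper bound for cluster 3 being 96.2 CPM. The 77 UMIs of the 11 endothelial-like cells were 56.6% of the gene's UMIs in this tumor. Of the 11 epithelial markers, 9 were at 0 in those cells. The endothelial-like cells of the medium tumor, by contrast, held epithelial markers at a sum of 4245 CPM. They had 74.2 Ctla2a UMIs (67.4 to 81.7) per 100 epithelial marker UMIs, against 12.9 (12.8 to 13.1) in the epithelial-like cells themselves and 45.4 (44.4 to 46.5) in cluster 4, the highest epithelial-like cluster by this ratio. In stromal cells of the medium tumor the ratio was higher still, at 114 (99.8 to 130).

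The paralog Ctla2b lies beside Ctla2a (chr13:60895350-60897447, minus strand) and encodes a closely related propeptide-like protein. Its level was far lower but was highest in the same carcinoma clusters of the medium tumor, at 70.9 CPM (126 UMIs) in cluster 6 and 62.4 CPM (101 UMIs) in cluster 4, against 2.12 CPM (6 UMIs) in cluster 5. Unlike Ctla2a it was higher in monocyte/macrophage-like cells, at 80.4 CPM (63.1 to 101), than in epithelial-like cells, at 20.1 CPM (18.1 to 22.3). The large tumor had 4 of its UMIs in epithelial-like and 11 in monocyte/macrophage-like cells. The transcripts of the pair matched at 660 of 704 aligned bases (93.8%), so reads within that stretch could be assigned to either gene. The alignment ended 645 bases before the 3′ end of Ctla2a, and the last 300 bases of the Ctla2a transcript shared no run longer than 9 bases with Ctla2b. On the other side, the alignment ended 137 bases before the 3′ end of Ctla2b, whose last 300 bases shared a run of 21 bases with Ctla2a. Whether Ctla2b counts in the Ctla2a-high clusters include reads of Ctla2a was not tested. Annotated read-through transcripts span Ctla2a on the same strand and have no row in the tables. Within 500000 bases of Ctla2a lie placental cathepsins and trophoblast genes, which were at 0 apart from a single UMI of Ctsj in the medium tumor. A list of 9 placental cathepsins had 8 at 0 in the medium tumor and all 9 at 0 in the large tumor.

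Because Ctla2a and Ctla2b were high in the same carcinoma clusters, their promoters are shown from RefSeq (GRCm38.p6). Each is the 250 bases before the annotated start, 5′ to 3′ on the gene's strand, with capitals marking TGANTCA, the motif of AP-1 factors. Ctla2a is chr13:60936626-60936875 and Ctla2b is chr13:60897448-60897697, both on the minus strand.
Ctla2a: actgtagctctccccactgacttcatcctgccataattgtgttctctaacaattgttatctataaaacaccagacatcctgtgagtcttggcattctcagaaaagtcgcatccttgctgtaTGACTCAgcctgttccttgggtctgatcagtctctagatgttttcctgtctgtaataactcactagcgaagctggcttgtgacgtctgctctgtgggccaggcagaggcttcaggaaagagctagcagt
Ctla2b: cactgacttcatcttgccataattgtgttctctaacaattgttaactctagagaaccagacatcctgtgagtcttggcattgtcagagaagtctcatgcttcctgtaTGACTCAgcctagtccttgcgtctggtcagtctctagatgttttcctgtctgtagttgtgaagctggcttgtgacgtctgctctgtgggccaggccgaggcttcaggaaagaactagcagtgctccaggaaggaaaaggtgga
The promoters matched at 208 of 228 aligned bases (91.2%). Both held 1 TGANTCA, whose bases lay 129 to 123 before the start of Ctla2a and 143 to 137 before that of Ctla2b. This motif was present, on either strand, in 6.75% of 32851 promoter windows of that length from 27025 genes. Among the 6 of 9 genes with a promoter in the table, the others being Ctsl, Ctsd, Ctss and Ctsz, none besides this pair held it. The match is a description of the letters and not of binding.

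The target of Ctla2a, cathepsin L, had a different distribution. Ctsl (chr13:64359337-64370890, minus strand) encodes a broad lysosomal endopeptidase. In the medium tumor its level was 1281 CPM (1209 to 1356) in monocyte/macrophage-like, 1091 CPM (990 to 1199) in mesothelial-like and 720 CPM (632 to 817) in stromal cells. It was 637 CPM (539 to 747) in endothelial-like, 610 CPM (528 to 700) in unnamed and 607 CPM (596 to 619) in epithelial-like cells. The stromal, endothelial-like, unnamed and epithelial-like levels overlapped with their neighbours in this order. Among the carcinoma clusters of the medium tumor Ctsl ran from 371 CPM in cluster 5 to 1121 CPM in cluster 7, a 3.02-fold range (2.8 to 3.25). The range was 18.4-fold (12.5 to 28.4) in the large tumor, from 132 CPM (26 UMIs) in cluster 4 (led by Papss2, Fabp1 and Guca2b) to 2442 CPM (1102 UMIs) in cluster 1 (Ggct, Ramp1 and Ank). Clusters 6 (Tff3, Lgals2 and Muc2) and 9 (Upk3a, Sprr2f and Ly6d) were also low, at 346 and 216 CPM. Clusters 5, 3 and 7 lay between, at 1520, 986 and 963 CPM. Cluster 1, the highest, had 1644 CPM of Vim and 86.4 CPM of Epcam, and cluster 7 of the medium tumor, also the highest of its tumor in Ctsl, had 1570 and 200 CPM. The pairing was not general, since cluster 5 of the medium tumor, with 1572 CPM of Vim and 213 CPM of Epcam, had the lowest Ctsl of its tumor. Without cluster 1, the range on the log2 scale with 1 UMI added was 3.47 instead of 4.15, and without clusters 4, 6 and 9 it was 1.34.

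The balance of inhibitor and target RNA followed Ctla2a more than Ctsl. In the medium tumor there were 9.92 Ctla2a UMIs (9.29 to 10.6) per Ctsl UMI in cluster 4, 7.89 (7.47 to 8.34) in cluster 6 and 4.66 (4.28 to 5.07) in cluster 8. Without the cell of highest count in cluster 8, its ratio was 2.90 (2.65 to 3.17). The ratio was below 0.54 in clusters 1, 2, 3, 5 and 7, and 0.15 (0.13 to 0.18) in monocyte/macrophage-like cells. In endothelial-like cells it was 4.95 (4.15 to 5.94) in the medium and 5.13 (2.93 to 9.61) in the large tumor. These were the only cells of the large tumor with more Ctla2a than Ctsl, the ratio being 0.23 (0.13 to 0.37) in stromal, 0.034 (0.019 to 0.057) in monocyte/macrophage-like and 0.0088 (0.0056 to 0.013) in epithelial-like cells. Over cells the rank correlation of the 2 genes after thinning was 0.15 in 2331 carcinoma cells of the medium tumor. In sparse counts from 1 library this is a weak relation and not a finding.

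Ctsb (chr14:63122462-63145923, plus strand) encodes an endopeptidase that also trims dipeptides from protein ends. In the medium tumor 1334 CPM (1260 to 1411) was measured in monocyte/macrophage-like and 508 CPM (497 to 518) in epithelial-like cells, with 659 to 877 CPM in the other classes. The levels in the large tumor were 1397 CPM (1236 to 1572) in monocyte/macrophage-like, 1377 CPM (863 to 2085) in endothelial-like, 470 CPM (321 to 663) in stromal and 307 CPM (283 to 333) in epithelial-like cells. It was the most even member among carcinoma clusters of the large tumor, with 216 to 388 CPM. In the medium tumor it ran from 300 CPM in cluster 5 to 1006 CPM in cluster 7, the same clusters as for Ctsl.

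Ctss was the member most restricted to macrophages. It lies on chromosome 3 (chr3:95526786-95556403, plus strand) and encodes a cysteine protease of antigen-presenting cells that cleaves the invariant chain of MHC class II. Its level was 2927 CPM (2818 to 3040) in monocyte/macrophage-like cells and 19.4 CPM (17.4 to 21.5) in epithelial-like cells of the medium tumor. The levels in the large tumor were 4384 CPM (4096 to 4687) and 42.9 CPM (34.2 to 53.1). After thinning to 2500 UMIs, 95% of monocyte/macrophage-like and 3.90% of epithelial-like cells of the medium tumor had a Ctss UMI, the median cell of the tumor holding 5456.5 UMIs before thinning. The low counts outside macrophages were compared with the 11 macrophage markers, since free RNA from 1 source keeps its genes in 1 ratio. The large tumor had 17.9 Ctss UMIs (14 to 22.6) per 100 marker UMIs in epithelial-like and 18.7 (17.4 to 20.1) in monocyte/macrophage-like cells, the intervals overlapping. The epithelial-like value was not even over clusters, however. It was 34.6 (24 to 49.2) in clusters 4 and 6, on 44 Ctss UMIs, and 11.7 (8.19 to 16.2) in the other epithelial-like clusters, on 40 Ctss UMIs, so these lay above and below the macrophage ratio. In the medium tumor the ratio was 4.92 (4.4 to 5.47) and 9.0 (8.65 to 9.36), so the epithelial-like cells held less Ctss per macrophage marker UMI than the macrophages did. The unnamed cluster, with 734 CPM of Ctss, had 7.96 (6.95 to 9.08).

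Ctsz and Ctsh were higher in macrophages but not absent from carcinoma cells. Ctsz (chr2:174427493-174439039, minus strand) encodes a carboxypeptidase whose medium tumor level was 921 CPM (860 to 985) in monocyte/macrophage-like and 135 CPM (130 to 141) in carcinoma cells. The corresponding levels of the large tumor were 382 CPM (301 to 479) and 61.3 CPM (50.8 to 73.3). Its range over the carcinoma clusters of the medium tumor was the narrowest of the 8 genes, 2.08-fold (1.67 to 2.61). Ctsh (chr9:90054152-90076089, plus strand) encodes an aminopeptidase, with 570 CPM (523 to 621) and 223 CPM (217 to 230) in these classes of the medium tumor and 443 CPM (355 to 547) and 91.9 CPM (79.0 to 106) in the large tumor. Among carcinoma clusters of the medium tumor Ctsh was highest in cluster 6, at 442 CPM, and lowest in cluster 7, at 108 CPM, a 4.10-fold range (3.51 to 4.81). Cluster 7, at the top for Ctsl and Ctsb, was thus at the bottom for Ctsh. The range rested on that cluster, since without it the log2 range was 1.73 instead of 2.03.

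Over the 14 clusters of the medium tumor, Ctss and Ctsz ran closely together (Pearson r = 0.96 of log2(CPM + 1)), whereas r was 0.10 over the 10 clusters of the large tumor, where Ctsz was at 0 in 2 clusters. The clusters of a tumor share 1 library and differ in depth, so these values are descriptive. The promoters of this pair are shown as above, with capitals marking GGGCGG, the GC box. Ctss is chr3:95526536-95526785 on the plus strand and Ctsz is chr2:174439040-174439289 on the minus strand.
Ctss: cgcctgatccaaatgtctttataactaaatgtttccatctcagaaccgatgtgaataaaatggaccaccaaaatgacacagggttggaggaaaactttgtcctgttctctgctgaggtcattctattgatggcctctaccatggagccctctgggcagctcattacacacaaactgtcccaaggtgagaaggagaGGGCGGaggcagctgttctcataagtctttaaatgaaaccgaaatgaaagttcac
Ctsz: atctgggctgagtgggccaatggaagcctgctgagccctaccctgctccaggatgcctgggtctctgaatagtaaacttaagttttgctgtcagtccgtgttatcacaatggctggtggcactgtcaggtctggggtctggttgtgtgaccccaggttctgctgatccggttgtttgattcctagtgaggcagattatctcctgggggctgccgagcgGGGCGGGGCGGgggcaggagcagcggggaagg
Ctss held 1 GGGCGG, 55 to 50 bases before the start. Ctsz held 2, at 32 to 27 and at 27 to 22 bases, which share 1 base. This motif was in 32.7% of all promoter windows and is therefore common. The other motifs searched on both strands were CACGTG (the E-box, in 6.02% of windows), the CLEAR element (a longer E-box of lysosomal promoters that contains CACGTG, in 0.24%), TATAAA (in 12.4%) and CCAAT (in 33.8%). GGGCGG was also found in Ctsd. CACGTG was found in Ctsl and Ctsd, the CLEAR element in none of the 6, TATAAA in Ctla2a and Ctss, and CCAAT in Ctsz. Of the 250 bases, 211 of the Ctsd window and 48 of the Ctsl window are exon of the same gene in the annotation, so these windows are in part transcribed sequence.

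Of the aspartic pair, Ctsd was higher and Ctse was lower in macrophages than in carcinoma cells. Ctsd (chr7:142375911-142388038, minus strand) encodes the main aspartic protease of lysosomes. Its level was 2163 CPM (2069 to 2260) in monocyte/macrophage-like and 419 CPM (409 to 428) in carcinoma cells of the medium tumor, against 1703 CPM (1525 to 1895) and 157 CPM (140 to 176) in the large tumor. Ctse (chr1:131638306-131675505, plus strand) encodes an endosomal aspartic protease known from gastric mucosa. Its level was 897 CPM (883 to 911) in epithelial-like and 98.8 CPM (79.6 to 121) in monocyte/macrophage-like cells of the medium tumor, against 267 CPM (245 to 291) and 25.5 CPM (8.28 to 59.5, 5 UMIs) in the large tumor. Of the aspartic UMIs, Ctse made up 68.2% in epithelial-like and 4.37% in monocyte/macrophage-like cells of the medium tumor, and 62.9% and 1.47% in the large tumor. Per 100 epithelial marker UMIs there were 7.78 Ctse UMIs (7.65 to 7.90) in epithelial-like, 8.4 (6.64 to 10.5) in endothelial-like and 6.84 (5.36 to 8.62) in mesothelial-like cells of the medium tumor. The ratio was 14.9 (11.8 to 18.6) in monocyte/macrophage-like, 11.3 (8.22 to 15.3) in stromal and 10.4 (9.14 to 11.9) in unnamed cells. Among the epithelial-like clusters it ran from 3.31 in cluster 6 to 17.7 in cluster 4. The intervals of monocyte/macrophage-like, stromal and unnamed cells lay above the pooled epithelial-like ratio. Those of endothelial-like and mesothelial-like cells spanned it. The part of free epithelial RNA in the Ctse counts of these classes was not tested.

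Among the carcinoma clusters of the medium tumor, Ctse was highest in cluster 4, at 2381 CPM, followed by cluster 8 at 1526 CPM and cluster 1 at 1169 CPM. It was lowest in cluster 5, at 387 CPM, which made a range of 6.16-fold (5.76 to 6.59). Clusters 6 and 4, nearly equal in Ctla2a, thus differed in Ctse, which was at 552 CPM in cluster 6. Cluster 1, led by gastrokines, was low in Ctla2a and followed directly on clusters 4 and 8 in Ctse. Without cluster 4, the log2 range of Ctse was 1.98 instead of 2.62 and missed 4-fold. Of the carcinoma clusters of the large tumor, the gastrokine-led cluster 7 (Gkn2, Gkn3 and Tff1) was the highest in Ctse, at 518 CPM. Cluster 1 of that tumor had 153 CPM, and cluster 9 had 108 CPM on 2 UMIs. Ctsd ran from 268 CPM in the cycling cluster 3 to 712 CPM in cluster 6 of the medium tumor.

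**Figure D3:**
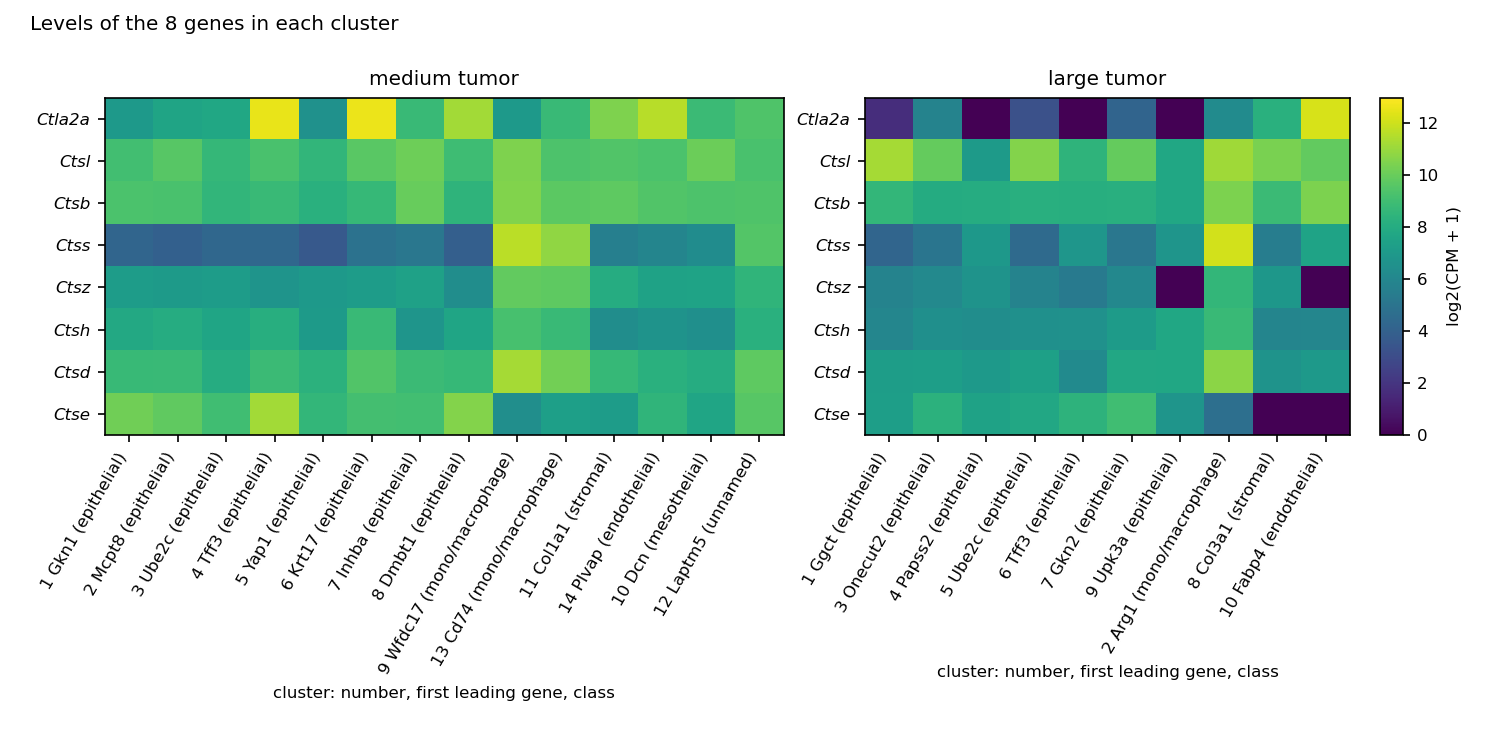
Level of the 8 genes as log2(CPM + 1), color scale at the right, in the 14 clusters of the medium tumor and the 10 of the large tumor, each named by number, first leading gene and class. Ctla2a was highest in clusters 6 and 4 of the medium tumor and in the endothelial-like cluster 10 of the large tumor, and Ctss in the monocyte/macrophage-like clusters.

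Counted over the carcinoma clusters, 3 of the 8 genes passed a 4-fold range in the medium tumor (Ctla2a, Ctse and Ctsh). Of all 7317 genes with at least 200 UMIs there, 20% did, and the median log2 range was 1.67 over the members and 1.24 over all genes. For the large tumor 3 of 7 genes with at least 50 UMIs passed (Ctsl, Ctss and Ctsh), beside 54.5% of 4365 genes. Ctla2a had 23 UMIs there and was not counted. With 1 UMI added, Ctss and Ctsh had their highest level there in cluster 9, of 17 cells, on 2 and 4 UMIs. Without it, Ctss was still past 4-fold at 2.67 on the log2 scale, whereas Ctsh was at 1.16 and missed it. Ctss in the large tumor was otherwise highest in clusters 4 and 6, at 122 and 112 CPM. Without clusters 9, 4 and 6 together, 0 of the 7 genes passed, with log2 ranges of 1.34 for Ctsl, 1.16 for Ctsh and 0.95 for Ctss. Because the members were chosen with these levels in view, nothing is read from these shares.

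Between macrophages and carcinoma cells of the medium tumor, 6 of the 8 genes were at least 2-fold higher in monocyte/macrophage-like cells and 2 were at least 2-fold lower. The higher genes were Ctss at 151-fold (135 to 169), Ctsz at 6.81-fold (6.29 to 7.36), Ctsd at 5.17-fold (4.92 to 5.43), Ctsb at 2.63-fold (2.47 to 2.79), Ctsh at 2.55-fold (2.33 to 2.8) and Ctsl at 2.11-fold (1.98 to 2.24). The lower genes were Ctla2a, 7.80-fold (6.73 to 9.10) higher in epithelial-like cells, and Ctse, 9.08-fold (7.39 to 11.3) higher there. Of all 7838 genes with at least 200 UMIs, 8.14% were at least 2-fold higher and 26.2% at least 2-fold lower. Only 5 of these genes had a larger ratio than Ctss. Ctsl lay close to the threshold, with a log2 ratio of 0.99 when CPM was averaged over cells and 0.88 when each cell was classed by its own markers. Without cluster 4, the log2 ratio of Ctla2a was -2.43 instead of -2.96, and without the cell of highest Ctla2a count in each cluster it was -3.75.

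For the large tumor the same ratio was at least 2-fold higher for 6 genes, at least 2-fold lower for 1 and neither for Ctsl. Ctss was 102-fold (81.6 to 129) higher in monocyte/macrophage-like cells, Ctsd 10.8-fold (9.25 to 12.7), Ctsz 6.24-fold (4.61 to 8.40), Ctsh 4.83-fold (3.69 to 6.27) and Ctsb 4.54-fold (3.93 to 5.25). Ctse was 10.5-fold (4.46 to 32.4) higher in epithelial-like cells. Ctsl was at 1.69-fold (1.52 to 1.87), and its log2 ratio was 1.17 instead of 0.76 without the Ctsl-high cluster 1. Ctla2a was 6.51-fold (3.16 to 13) higher in monocyte/macrophage-like cells, on 15 against 23 UMIs, the opposite direction from the medium tumor. Its log2 ratio was 4.17 instead of 2.73 without the cell of highest count in each cluster. Of 4829 genes with at least 50 UMIs, 10.4% were at least 2-fold higher and 24.5% at least 2-fold lower. The median log2 ratio of the members was 1.37 in the medium and 2.46 in the large tumor, beside -0.42 and -0.28 over all genes tested.

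The sum of the 7 cathepsins was 2809 CPM in epithelial-like and 9295 CPM in monocyte/macrophage-like cells of the medium tumor, and 2261 and 10587 CPM in the large tumor. The leading cysteine cathepsin differed by cell type. Ctss made up 41.6% of the cysteine cathepsin UMIs of monocyte/macrophage-like cells in the medium tumor and 49.5% in the large tumor, against 1.30% and 2.34% in epithelial-like cells. Ctsl made up 40.7% and 72.6% in epithelial-like cells, and 18.2% and 25.4% in monocyte/macrophage-like cells.

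**Figure D4:**
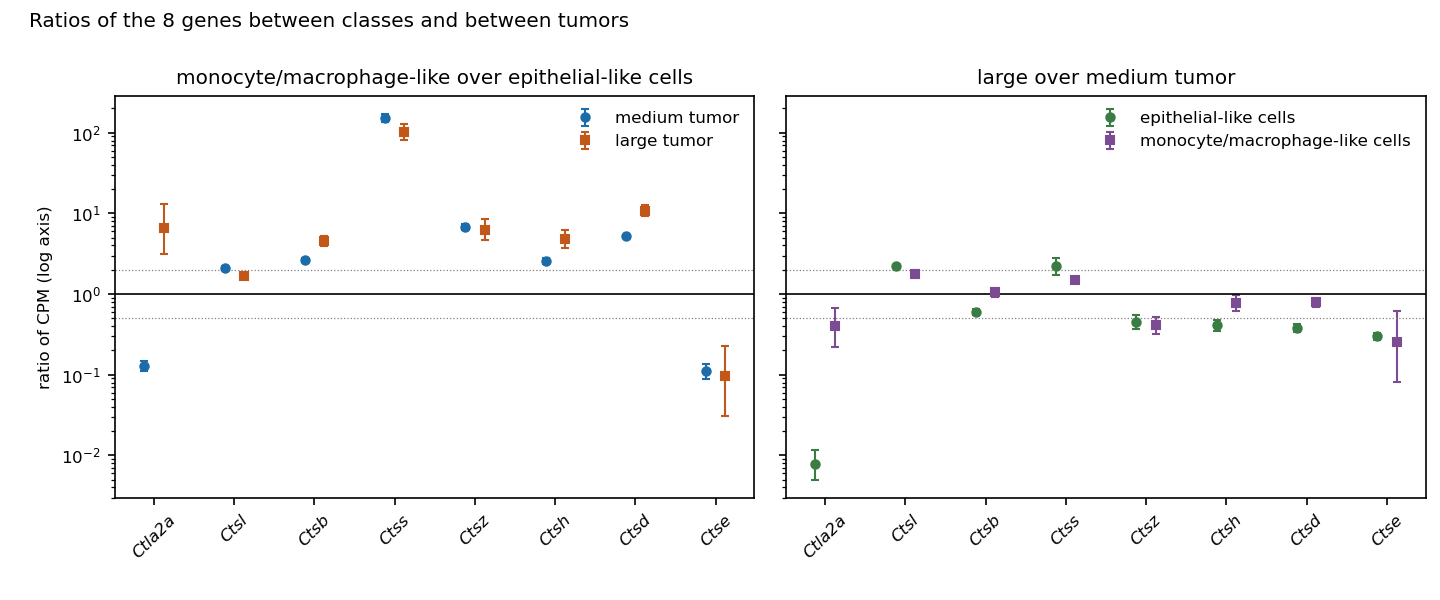
Ratio of CPM (log axis) of the 8 genes between monocyte/macrophage-like and epithelial-like cells of each tumor (left) and between the large and the medium tumor in either class (right), with 95% intervals from counting error; dotted lines mark 2-fold in either direction. Ctss stood at 151-fold and 102-fold on the left, and Ctla2a in epithelial-like cells was 127-fold lower in the large tumor on the right.

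The medium tumor held 2 monocyte/macrophage-like clusters, compared here by their levels with no test. Cluster 9 (197 cells, led by Wfdc17, Chil3 and Lyz2) had 2.22-fold (1.84 to 2.69) the Ctsl level of cluster 13 (41 cells, led by Cd74, C1qa and C1qb). Ctsd was 2.02-fold (1.75 to 2.32), Ctss 1.78-fold (1.59 to 2.00), Ctsb 1.74-fold (1.47 to 2.06) and Ctsh 1.35-fold (1.07 to 1.73) higher in cluster 9. Ctsz was at 1.05-fold (0.89 to 1.25), an interval that spans equality, and Ctse was 1.91-fold (1.19 to 3.0) higher in cluster 13. The proliferation genes Mki67 and Top2a were 13.4-fold (7.11 to 27.1) and 49.4-fold (18.2 to 188) higher in cluster 13. Ctla2a was 3.62-fold (2.66 to 4.92) higher in cluster 13, on 85 against 91 UMIs, but 1 cell held 72 of the 85. Without that cell, Ctla2a was at 71.9 CPM (38.3 to 123) in cluster 13, beside 124 CPM in cluster 9. Epithelial markers summed to 670 CPM in cluster 9 and 641 CPM in cluster 13.

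Between the tumors, the most marked difference among the members was that of Ctla2a in carcinoma cells. Medium cluster 4 and large cluster 9 carried Ly6d, listed here as a B-cell marker, among their 10 leading genes. They carried 10 and 7 of the 11 epithelial markers. No gene of the epithelial list was among their leading genes, which held for every epithelial-like cluster except medium cluster 6. Carcinoma cells were compared without the Ly6d-led clusters first. On that basis Ctla2a was 87.4-fold (58.2 to 138) lower in the large tumor, and with them 127-fold (84.6 to 200) lower. Without the cell of highest count in each cluster, the log2 ratio with them was -8.99 instead of -6.93. Among the 7634 genes with at least 200 UMIs in both tumors together, and likewise among the 7379 without these clusters, 0 had a lower ratio. Over all carcinoma cells, those clusters included, Epcam was at 1091 CPM in the medium and 1108 CPM in the large tumor. Without those clusters, Ctse was 2.8-fold (2.56 to 3.06), Ctsd 2.64-fold (2.36 to 2.98), Ctsh 2.40-fold (2.06 to 2.81) and Ctsz 2.23-fold (1.86 to 2.71) lower. Ctsb was 1.67-fold (1.54 to 1.82) lower and did not reach 2-fold. Ctsl was 2.22-fold (2.12 to 2.31) and Ctss 2.18-fold (1.69 to 2.78) higher. Per 100 macrophage marker UMIs, carcinoma cells of the medium tumor held 4.92 Ctss UMIs, against 9.0 in macrophages. In the large tumor the value was 34.6 in clusters 4 and 6 and 11.7 in the other epithelial-like clusters, against 18.7 in macrophages, and the part of free macrophage RNA in the Ctss difference was not tested. Counted with Ctss, 2 members were higher and 5 lower past 2-fold, both with and without the Ly6d-led clusters. Of 7379 genes tested without those clusters, 5.84% were higher and 17.3% lower, and with them 5.88% and 17.3%. The median log2 ratio of all genes was -0.14 with them.

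The calls of Ctsl and Ctss between tumors each rested on particular clusters. The log2 ratios that follow include the Ly6d-led clusters. Without large cluster 1 and medium cluster 7, which had the fewest epithelial markers, the log2 ratio of Ctsl was 0.87 instead of 1.13. Without the large-tumor clusters led by Fabp1 or Muc2, the log2 ratio of Ctss was 0.41 instead of 1.16. By cluster, the gastrokine-led clusters can be set side by side. Ctla2a was at 124 CPM in medium cluster 1 and at 17.5 CPM (5 UMIs) in large cluster 7, Ctse at 1169 and 518 CPM, and Ctsl at 529 and 963 CPM. The cycling clusters, medium 3 and large 5, both led by Ube2c, had 215 and 8.20 CPM of Ctla2a, 404 and 1520 CPM of Ctsl and 525 and 225 CPM of Ctse. In both pairs Ctsl was higher, and Ctla2a and Ctse were lower, in the large tumor.

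Monocyte/macrophage-like cells differed between the tumors past 2-fold in 3 members. Ctsz was 2.41-fold (1.90 to 3.09), Ctla2a 2.50-fold (1.48 to 4.56) and Ctse 3.88-fold (1.60 to 12.2) lower in the large tumor, and no member was 2-fold higher. Ctsl was 1.76-fold (1.57 to 1.96) and Ctss 1.5-fold (1.38 to 1.62) higher, Ctsb was at 1.05-fold (0.92 to 1.2), Ctsd at 0.79-fold (0.70 to 0.88) and Ctsh at 0.78-fold (0.61 to 0.98). Of 2672 genes with at least 50 UMIs, 8.16% were at least 2-fold higher and 11.4% at least 2-fold lower, with a median log2 ratio of 0.04. Ctla2a and Ctse, the members high in carcinoma cells of the medium tumor, had 176 and 91 UMIs in its macrophages and 15 and 5 UMIs in those of the large tumor. Epcam was at 96.7 and 76.5 CPM in the same cells. Per 100 epithelial marker UMIs, macrophages of the medium tumor held 28.8 Ctla2a UMIs (24.2 to 34.1) and 14.9 Ctse UMIs (11.8 to 18.6), and without the 1 cell that held 72 Ctla2a UMIs they held 17.8 (14.3 to 22) and 11.5 (8.77 to 14.8). The same ratios ran over the epithelial-like clusters from 0.84 to 45.4 for Ctla2a and from 3.31 to 17.7 for Ctse. Pooled over epithelial-like cells they were 12.9 (12.8 to 13.1) and 7.78 (7.65 to 7.90), below the macrophage values with and without that cell. In the large tumor the Ctla2a ratio was 33.3 (17.3 to 60.9) in macrophages and 0.26 (0.17 to 0.39) in epithelial-like cells. The Ctse ratios there were 11.1 (3.44 to 27.9) and 5.98 (5.46 to 6.53). The part of free epithelial RNA in these counts was not tested. Without medium cluster 13, which held the cell with 72 UMIs, the log2 ratio of Ctla2a was -0.62 instead of -1.24.

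Other genes of cathepsin biology were counted as lists. Of the other cathepsins, 4 of 7 could be tested in the medium tumor and all 4 were at least 2-fold higher in monocyte/macrophage-like than in epithelial-like cells, beside 8.14% of all 7838 genes higher and 26.2% lower. Ctsc, which activates serine proteases of immune granules, was 7.43-fold (6.76 to 8.17) higher, and Ctsa, a serine carboxypeptidase, 4.21-fold (3.70 to 4.78). Both tested in the large tumor, Ctsc at 12.3-fold (10.2 to 14.8) and Ctsa at 4.39-fold (2.53 to 7.39), were higher, beside 10.4% of all 4829 genes higher and 24.5% lower. Of 11 other inhibitors, 3 were tested in the medium tumor and 2 were higher, Cst3 (cystatin C) at 3.61-fold (3.44 to 3.79) and Ctla2b at 4.00-fold (3.07 to 5.14), while Cstb (stefin B) was at 1.82-fold (1.70 to 1.93). Of 4 inhibitors tested in the large tumor, 3 were higher and 1 lower. Cst3 was 6.56-fold (5.83 to 7.37), Cstb 2.43-fold (2.05 to 2.86) and the stefin-like BC100530 69.2-fold (39.3 to 131) higher. Cst6 (cystatin E/M) had 86 UMIs (43.9 CPM) in epithelial-like and 0 in monocyte/macrophage-like cells, which allows up to 15.3 CPM. The other 8 listed inhibitors had too few UMIs in the medium tumor to be counted.

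Of 11 genes of activation and sorting, 3 were higher and 1 lower in the medium tumor, beside 8.14% and 26.2% of all genes. Lgmn (legumain, which processes procathepsins) was 6.86-fold (6.19 to 7.60), Psap (prosaposin) 6.37-fold (6.04 to 6.71) and Lamp1 2.58-fold (2.40 to 2.77) higher. Of 7 such genes in the large tumor 6 were higher, with Lgmn at 11.1-fold (9.2 to 13.5). Of 21 lysosomal hydrolases and related proteins tested in the medium tumor 13 were higher and none lower, beside 8.14% and 26.2% of all genes, with a median log2 ratio of 1.27 against -0.42 over all genes. In the large tumor 10 of 13 were higher, beside 10.4% of all genes, with a median of 1.94 against -0.28. Grn (progranulin) was 6.38-fold (5.80 to 7.01) and 8.53-fold (5.80 to 12.5) higher in the 2 tumors. Tfe3, the only lysosome transcription factor with enough UMIs of 4 listed, did not pass 2-fold in either tumor. All 6 MHC class II genes in the medium tumor and all 4 tested in the large tumor were higher, at medians of 6.54 and 6.46 on the log2 scale.

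**Figure D5:**
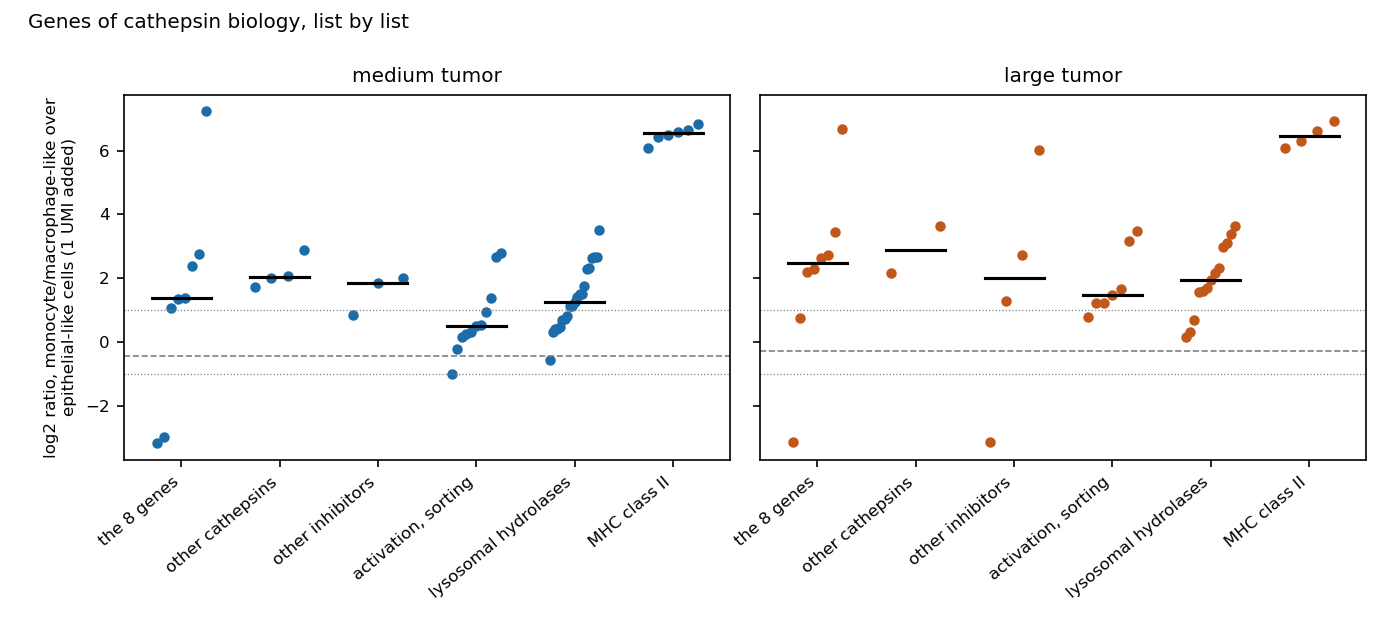
Log2 ratio of monocyte/macrophage-like over epithelial-like cells, with 1 UMI added to each sum, for the tested genes of each list in the medium tumor (left) and the large tumor (right). Points are genes, bars are list medians, the dashed line is the median of all genes tested (-0.42 and -0.28) and dotted lines mark 2-fold; the 8 genes ran from -3.17 (Ctse) to 7.23 (Ctss) in the medium tumor, while the other cathepsins and the MHC class II genes all lay above the 2-fold line.

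Over the carcinoma clusters of the medium tumor, the other lists varied less than Ctla2a. None of the 2 other cathepsins tested, 1 of 3 inhibitors (Ctla2b), 2 of 11 activation and sorting genes and 3 of 20 lysosomal hydrolases passed 4-fold, beside the 20% of all genes. Of the MHC class II genes 1 of 4 tested (Cd74) passed, and the lysosome transcription factor Tfe3 did not. Between the tumors, lysosomal hydrolases in epithelial-like cells were lower past 2-fold for 5 of 20 and higher for none, beside 17.3% and 5.88% of all genes, with a median log2 ratio of -0.26 against -0.14 over all genes. In monocyte/macrophage-like cells 1 of 14 was higher and 4 lower, beside 8.16% and 11.4% of all 2672 genes.

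Cd74 and BC100530, listed here as substrate and inhibitor of cathepsins, differed more between the tumors in monocyte/macrophage-like cells than any member did. Cd74, the invariant chain that cathepsin S cleaves, was at 5306 CPM (4885 UMIs) in monocyte/macrophage-like cells of the medium tumor and at 76.5 CPM (15 UMIs) in those of the large tumor. It was 69.4-fold (42 to 124) lower there and had the lowest ratio of the 2672 genes tested. H2-Aa, an MHC class II chain that pairs with it, was at 2733 and 1998 CPM. BC100530 had 0 UMIs in monocyte/macrophage-like cells of the medium tumor, which allows up to 3.26 CPM, and 97 UMIs (494 CPM) in those of the large tumor. Whether both libraries were counted with the same gene models is not given in the sources used here, and the cause of these differences was not tested.

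The genes most like each member over the 14 clusters of the medium tumor were taken from the 7838 genes with at least 200 UMIs, by Pearson r of log2(CPM + 1). Ctss was most like Tyrobp and Fcer1g, signaling adaptors of myeloid cells, and F10 (r = 0.99 for each). Ctsz was most like Cd52, Fcgr3 and Cd53 (r = 0.97, 0.96 and 0.96), and Ctsd like P2rx4, Il1rn and Wfdc17 (r = 0.93, 0.92 and 0.92). Ctsl was most like Tmem50a, Gabarap and Ctsb (r = 0.81, 0.79 and 0.78), and Ctsb like Crem, Hexa and Fam174a (r = 0.88, 0.87 and 0.87). Ctsh was most like Cyba, Neurl3 and Diap1 (r = 0.87, 0.87 and 0.85), and Ctse like Hsd17b10, Urah and Ppdpf (r = 0.96, 0.96 and 0.95). Ctla2a was most like Arpp19, Xpa and Purb (r = 0.91, 0.87 and 0.85), for which r over the 10 clusters of the large tumor was -0.21, 0.00 and -0.29. Over the clusters of the large tumor r was likewise near 0 for Ctsz with Cd52 (-0.05) and Fcgr3 (0.10), for Ctse with Hsd17b10 (-0.01) and for Ctsh with Diap1 (0.09). It was 0.96 for Ctsz with Cd53, 0.94 for Ctss with Fcer1g, 0.84 for Ctsb with Hexa and for Ctse with Urah, and 0.74 for Ctss with Tyrobp and for Ctsl with Tmem50a. The others lay between 0.27, for Ctsh with Neurl3, and 0.72, for Ctsb with Crem, apart from P2rx4 and F10, which had under 50 UMIs there and were given no value. For Ctla2a, r with each of the 7 cathepsins lay between -0.28, for Ctsz, and 0.31, for Ctse, in the medium tumor, and between -0.78, for Ctse, and 0.75, for Ctsb, over the clusters of the large tumor. Clusters of 1 tumor share a library and were built from overlapping genes, so these values rank genes and test nothing.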

How the data were processed

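Single cells of 2 untreated KPC tumors were analysed. The full genotype of the strain is not reported here. The deposited UMI counts per gene and barcode were made by the authors with Cell Ranger on mm10, per the submitters' processing notes, and were not normalized; the version is not given in the sources used here. Each tumor's table was found through its library name in the sample titles. All 2812 and 1533 barcodes were kept. Scrublet (scanpy 1.11.5) called 0 and 9 doublets, and the cells with the highest 5% of scores were left out as an alternative. Each tumor was clustered with Seurat 5.3.0 in R 4.3.3 (2000 variable genes, 10 principal components, resolution 0.8). A cluster took a class name from 3 or more markers, each seen in 10% of its cells and at 25% of the level in the highest cluster, unless 60% of another class's markers were present. The members, gene lists and thresholds were chosen with earlier results of these data known.

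Counts were summed by class and cluster in Python 3.11.15 (numpy 2.4.6, scipy 1.17.1). Intervals are exact 95% Poisson intervals for sums and exact binomial intervals for ratios of counts, the limit of a 0 is 3 UMIs, and all cover counting error only. A gene was called past 2-fold, or past 4-fold over carcinoma clusters, with 1 UMI added to each sum, if it had at least 200 UMIs (medium tumor; carcinoma cells of both tumors) or 50 UMIs (large tumor; macrophages of both tumors). With 1 tumor of each size no test was made, and size and animal cannot be told apart. The named genes were the 8 members, at most 4 genes of each list by UMIs, 3 genes most like each member, 6 context genes and 3 leading genes per cluster. Leading genes were ranked by fold over the remaining cells after adding 10 CPM. Per-cell shares were thinned to 2500 UMIs. Promoters came from RefSeq (GRCm38.p6) and gene positions from GENCODE M21 (GRCm38). TMM scaling (edgeR 4.0.16) and the other alternatives are given at the end. The calculation was tested on simulated data.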

Additional observations from a re-analysis of the deposited data

Results flagged for a closer look

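Ctla2a stood on opposite sides of carcinoma cells in the 2 tumors. The log2 ratio of monocyte/macrophage-like over epithelial-like cells was -2.96 in the medium tumor (176 against 26979 UMIs) and 2.73 in the large tumor (15 against 23 UMIs). The ratio was picked out because its sign differed between the tumors, and the difference was not tested, since each tumor is 1 sample.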

How the results depend on the processing

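No paired analysis was possible because the 4 technical replicates of each tumor are pooled in 1 table. Of 80 counts of members under the alternatives, 75 were within 1.5 times the reported count, and of 640 values of single members 0 reversed. The count of members past 4-fold over carcinoma clusters of the large tumor was 5 with 20 principal components, 5 with the mean over cells of CPM per cell, 1 with a minimum 5 times higher and 0 without the clusters led by Ly6d, Fabp1 or Muc2, instead of 3. In monocyte/macrophage-like cells the count between tumors was 1 with a minimum 5 times higher, which tested fewer genes, instead of 3. Between tumors the log2 ratio of Ctla2a in carcinoma cells ran from -8.99 to -6.39 over the alternatives. That of Ctsl ran from 0.87 to 1.39, that of Ctss from 0.41 to 1.54 and that of Ctsz from -1.28 to -0.94, so each missed 2-fold under some of them. In macrophages Ctsz ran from -1.34 to -0.96. The log2 ratio of Ctsl between macrophages and carcinoma cells of the medium tumor ran from 0.87 to 1.25, and the log2 range of Ctsh over its carcinoma clusters from 1.73 to 2.53. Leaving out the clusters led by Ly6d, those led by Fabp1 or Muc2, both together, the carcinoma cluster with the fewest markers (except over carcinoma clusters), medium cluster 13 or the cell of each cluster with the most Ctla2a UMIs was chosen after seeing the data. The large tumor had a median of 1037 UMIs per cell, which limits its values for Ctla2a, Ctse in macrophages and cluster 9.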
